A study of Mus musculus with 22 samples.

Results

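The genes described here encode the ATR-CHK1 replication checkpoint: the kinase Atr and its partner Atrip, the clamp subunits Rad1 and Hus1, the activator Topbp1, the fork proteins Timeless and Tipin, and the kinases Chek1 and Wee1. They were chosen from a list of 10 names by an exact match to the gene symbols of the deposited table, and 9 of the 10 matched, out of 11208 genes. The listed name Claspn matched no symbol. The adaptor protein Claspin is encoded by Clspn, which the table does hold, and Clspn is reported beside the 9 members without being counted among them.

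RNA was sequenced in 22 libraries of NIH/3T3 cells, an established mouse fibroblast line, as 11 groups of 2. Each line held, stably integrated in its genome, a construct switched on by doxycycline, for E2F1 in one line and an empty vector (EV) in the other, and every group had first been starved for 48 h in 0.25% serum. The E2F1 line was collected at 0, 2, 6 and 12 h of 500 ng/ml doxycycline, the EV line with that dose at those times too, and the EV line also at 2, 6 and 12 h after 10% serum. The 2 EV libraries at 0 h served as the start of both EV time courses. Whether each line was 1 clone or a pool, and whether the 2 libraries of a group came from separate cultures, is not given in the sources used here, so p-values measure only the spread between these libraries.

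When replication forks stall, single-stranded DNA coated with RPA recruits ATR through ATRIP, while a ring-shaped clamp of RAD9, RAD1 and HUS1 is loaded nearby and brings in TOPBP1, which activates ATR. TIMELESS, TIPIN and Claspin travel with the fork and pass the signal to CHK1, which restrains origin firing and CDC25 phosphatases. WEE1 phosphorylates and inhibits the cyclin-dependent kinases and so acts on the same step from the other side. Many replication and checkpoint genes are known as E2F targets that are low in quiescent cells and high around the start of S phase.

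The values are the authors' normalized counts, and the library totals ran from 34014608 to 46057140. E2f1 itself was listed at 1703 and 1637 in the 2 E2F1-line libraries at 0 h, at 1535 and 1755 at 2 h, at 3806 and 3602 at 6 h and at 2683 and 2845 at 12 h. In the EV line E2f1 was between 1307 and 1655 at every doxycycline time, and it reached 4615 and 4247 after 12 h of serum. Transcripts of the construct and of the resident gene cannot be told apart in this table. All 10 fibroblast markers looked for were in the table, with a summed level of 689846 to 1412915 per library, and 0 of 4 epithelial, 0 of 3 blood and 0 of 2 endothelial markers were.

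The 2 h doxycycline libraries stood apart from the rest. For 7 genes that differed more than 8-fold between the lines at both 0 and 12 h of doxycycline, the position of a group between the EV line (0) and the E2F1 line (1) at 0 h had a median of 0.58 for E2F1 2 h, against 0.80 for E2F1 6 h. For the EV groups it was 0.14 at 2 h of doxycycline and 0.04 at 2 h of serum. Ddx3y, one of those 7, was at 580 and 521 in the E2F1 line at 0 h but at 329 and 316 at 2 h, and in the EV line it was at 9 and 4 at 0 h but at 103 and 71 at 2 h of doxycycline. It was also at 132 and 170 at 2 h of serum. Whether the libraries labelled 2 h hold RNA or reads of both lines was not tested, so each 2 h value below, those after serum included, describes the library labelled so. The other comparisons were also fitted without the 2 h doxycycline groups, and the 2 h serum libraries stayed in those fits.

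Promoter sequence was available for 8 of the 10 genes (the members and Clspn) in a RefSeq table for GRCm38.p6, which holds 250 bases before and 50 bases after each annotated start. Short E2F-type motifs (the motif TTGGCGC, the variant TTCCCGC, the variant TTGCCGC or the variant TTCGCGC, on either strand) were present in the windows of Topbp1, Chek1 and Clspn, and in 9.6% of all 32851 windows. They were not found in the windows of Atr, Atrip, Timeless, Rad1 or Hus1, and Tipin and Wee1 had no window. Below are the stretch upstream of Topbp1, which has 2 overlapping matches, the sites in Chek1 and Clspn, and the upstream stretch of Atr, the gene that changed least after E2F1 induction. All are written 5′ to 3′ along the gene's strand, and capitals mark the motifs.

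Topbp1, chr9:103305077-103305214, + strand: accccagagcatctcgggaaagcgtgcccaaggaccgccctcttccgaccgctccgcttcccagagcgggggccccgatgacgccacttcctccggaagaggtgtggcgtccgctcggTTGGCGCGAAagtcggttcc
Chek1, chr9:36726609-36726638, - strand: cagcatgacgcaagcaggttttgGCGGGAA
Clspn, chr4:126556990-126557019, + strand: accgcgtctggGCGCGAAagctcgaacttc
Atr, chr9:95857347-95857596, + strand: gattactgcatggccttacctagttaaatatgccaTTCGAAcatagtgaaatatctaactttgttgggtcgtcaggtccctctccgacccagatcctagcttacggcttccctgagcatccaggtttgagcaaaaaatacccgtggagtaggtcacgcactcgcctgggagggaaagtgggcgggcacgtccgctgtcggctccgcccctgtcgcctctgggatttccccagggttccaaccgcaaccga

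In Topbp1 the capitals hold TTGGCGC, starting 132 bases before the RefSeq start, and TTCGCGC on the opposite strand, which overlaps it. In Chek1 they hold TTCCCGC on the opposite strand from base 44 after the start, and in Clspn TTCGCGC on the opposite strand from base 22. The capitals in Atr mark TTCGAA, 1 of the 2 CHR-type motifs searched (with TTTGAA), which reads the same on both strands and lies 215 bases before the start. CHR-type motifs were in 19.2% of all windows and, among these genes, in Atr and Hus1. The CCAAT box was in 37.4% of all windows and, among these genes, in Atrip and Clspn. For Chek1, Timeless, Topbp1 and Clspn the RefSeq start lies inside the gene span of GENCODE M21, so other starts exist. The window of Timeless (128237816 to 128238115) did not hold its GENCODE gene start at 128232065. Nor did that of Chek1 (36726609 to 36726908) hold the start at 36727065, so the sequence at those starts was not searched. These matches describe the letters in the windows and are not evidence of binding.

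Atr, the kinase, changed little with E2F1, and Atrip, the partner that tethers it to RPA, followed another course over time. Atr (chromosome 9, 95857597 to 95951781, + strand, GRCm38) started in the E2F1 line at 1195 and 1268 (0 h) and was at 1100 and 1098 at 2 h, 1269 and 1220 at 6 h, and 1584 and 1446 at 12 h. Only at 12 h did both libraries lie above both 0 h libraries. Atr rose 1.23-fold at 12 h (log2 change 0.30 ± 0.09, where ± is the SE for log2 changes, adjusted p = 0.00726 by limma over all genes), the smallest called rise among the members. The call was lost under quantile normalization (0.18, adjusted p = 0.0891) and without E2F1 0 h replicate 1 or E2F1 12 h replicate 1 (adjusted p up to 0.082).

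After serum, Atr first fell and then rose. The EV libraries went from 1155 and 1137 at 0 h to 777 and 676 at 2 h, 1105 and 1042 at 6 h, and 1835 and 1854 at 12 h. The 2 h libraries were the lowest of all 22 and the 12 h libraries the highest. The limma log2 changes against 0 h were -0.66 ± 0.09 at 2 h, with an adjusted p of 2.42e-06, and 0.69 ± 0.09 at 12 h, with an adjusted p of 2.39e-06. The Atr exons overlap antisense transcripts and a small nuclear RNA gene over 1366 bases, and the use of strand in the counting is not given in the sources used here.

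Atrip (chromosome 9, 109057933 to 109074124, - strand) rose under both stimuli, and the rise was called from 2 h in serum and from 6 h with E2F1. In the E2F1 line it was at 458 and 399 at 0 h, 604 and 517 at 2 h, 705 and 602 at 6 h and 619 and 588 at 12 h, and every library at 6 and 12 h lay above both at 0 h. The rise was 1.52-fold at 6 h (log2 0.61 ± 0.15, limma adjusted p = 0.00245) and 1.41-fold at 12 h (0.50 ± 0.15, adjusted p = 0.00765, which became 0.0789 without E2F1 0 h replicate 2). Serum took Atrip from 449 and 477 at 0 h to 811 and 889 at 2 h, a 1.83-fold rise (log2 0.87 ± 0.15, limma adjusted p = 3.88e-05). The serum libraries were at 660 and 917 at 6 h, which overlapped those at 2 h, and at 652 and 596 at 12 h. The mean was highest at 2 h, when Atr was lowest, but the overlap leaves the order of 2 and 6 h unsettled. With every library set to the same total, the 2 h rise was 0.50. Atrip shares 1147 exon bases on the same strand with Trex1, and reads from that stretch could belong to either gene.

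Across the 11 group means Atr and Atrip had a Pearson r of -0.275, the lowest of any pair among these genes. This is a description over 11 groups, which are time points of the same lines, and it was not tested.

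Rad1 and Hus1, which form the clamp with a RAD9 protein, differed in the timing of their rise. Rad1 (chromosome 15, 10486018 to 10499063, + strand) started in the E2F1 line at 482 and 343 (0 h) and was at 338 and 394 at 2 h, 575 and 546 at 6 h, and 631 and 716 at 12 h. The libraries at 6 and 12 h were all above those at 0 h, although the 2 libraries at 0 h were far apart. Rad1 rose by a log2 change of 0.46 ± 0.18 at 6 h (limma adjusted p = 0.0358) and 0.72 ± 0.18 at 12 h (adjusted p = 0.00168). The 6 h call was lost with equal totals (adjusted p = 0.104) and without any of 3 libraries, E2F1 0 h replicate 2 (0.22, adjusted p = 0.398) and either 6 h replicate. Without E2F1 0 h replicate 2 the 12 h rise was 0.48, with an adjusted p of 0.0506.

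Hus1 (chromosome 11, 8993137 to 9011191, - strand) was at 570 and 561 at 0 h in the E2F1 line, 543 and 502 at 2 h, 507 and 488 at 6 h, and 884 and 758 at 12 h. Both libraries at 6 h lay below those at 0 h and both at 12 h above. The 6 h difference did not pass (log2 -0.18 ± 0.14, limma adjusted p = 0.267), and the rise from 6 to 12 h did (0.72 ± 0.14, adjusted p = 0.000638). With serum, Hus1 was already at 799 and 892 at 6 h, against 520 and 499 at 0 h, and at 1039 and 881 at 12 h. Its rise in serum was therefore called at 6 h (0.73 ± 0.14, limma adjusted p = 0.000128) and at 12 h (0.91 ± 0.14, adjusted p = 1.34e-05). Rad1 in serum also lay above its 0 h libraries (351 and 403) at 6 h, at 513 and 590, and was at 762 and 799 at 12 h. At 2 h of serum the genes differed in direction. Rad1 was lower than at 0 h, at 336 and 276, and Hus1 was higher, at 531 and 638, and neither difference passed. The Rad1 log2 change was 0.55 at 6 h (limma adjusted p = 0.0107, and 0.104 with equal totals) and 1.05 at 12 h (adjusted p = 4.5e-05).

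Topbp1, the activator that docks on the clamp, changed more than the clamp subunits. Topbp1 (chromosome 9, 103305215 to 103350428, + strand) started in the E2F1 line at 3820 and 3283 (0 h) and was at 3982 and 3921 at 2 h, 6989 and 6800 at 6 h, and 10204 and 9669 at 12 h. Each later pair lay wholly above the earlier one. It rose 1.95-fold at 6 h (log2 0.96 ± 0.13, limma adjusted p = 4.61e-06) and 2.80-fold at 12 h (1.49 ± 0.13, adjusted p = 1.52e-08). In serum Topbp1 was at 2417 and 3380 at 0 h, 2359 and 2292 at 2 h, 3365 and 3308 at 6 h, and 10123 and 9408 at 12 h. The serum rise thus lay between 6 and 12 h (log2 1.55 ± 0.13, limma adjusted p = 3.68e-08), and the 12 h libraries of the 2 stimuli overlapped. A fall at 2 h of serum was called at -0.30 (limma adjusted p = 0.0414), but it was -0.06 (adjusted p = 0.700) without EV 0 h replicate 2 and lost its call without the 2 h doxycycline groups (adjusted p = 0.0595), without either serum 2 h replicate and with only the compared groups fitted. Processed pseudogenes named Topbp1-ps1 and Topbp1-ps2 exist, and whether reads from them were counted for Topbp1 was not tested.

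Tipin, Timeless and Clspn, the proteins that ride with the fork, all rose with E2F1, by very different amounts. Tipin (chromosome 9, 64281581 to 64305424, + strand) was at 845 and 833 at 0 h, 1000 and 1153 at 2 h, 1989 and 1942 at 6 h, and 2577 and 2739 at 12 h. The 4 pairs of libraries did not overlap. The rise was 2.34-fold at 6 h (log2 1.23 ± 0.14, limma adjusted p = 7.56e-07) and 3.16-fold at 12 h (1.66 ± 0.14, adjusted p = 1.32e-08). In serum Tipin was at 673 and 991 at 0 h and still at 968 and 940 at 6 h, then at 3030 and 2899 at 12 h (log2 1.86 ± 0.14 against 0 h, limma adjusted p = 2.83e-09).

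Its partner Timeless (chromosome 10, 128232065 to 128252941, + strand) rose under both stimuli, but only after a fall in serum. In the E2F1 line it was at 1506 and 1417 at 0 h, 1504 and 1609 at 2 h, 2082 and 2233 at 6 h, and 2154 and 2373 at 12 h, so the 6 and 12 h libraries overlapped. The rise was 1.48-fold at 6 h (log2 0.56 ± 0.14, limma adjusted p = 0.00229) and 1.55-fold at 12 h (0.63 ± 0.14, adjusted p = 0.000622). Serum first lowered Timeless, from 1064 and 1152 at 0 h to 541 and 467 at 2 h, a 2.20-fold fall (log2 -1.14 ± 0.14, limma adjusted p = 5.91e-07). At 6 h of serum the libraries were at 1002 and 735, and at 12 h at 4224 and 3563, above every other library of the series. From 0 to 12 h this was a rise of 1.81 ± 0.14 on the log2 scale (limma adjusted p = 3.28e-09). The smaller 6 h fall (-0.37, adjusted p = 0.0241) lost its call without EV 0 h replicate 2, without serum 6 h replicate 2 (-0.14) and with only the compared groups fitted (adjusted p = 0.105).

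Clspn (chromosome 4, 126556935 to 126593903, + strand), the adaptor that presents CHK1 to ATR, had the largest log2 changes of these genes at 6 and 12 h of E2F1. In the E2F1 line it was at 1428 and 1244 at 0 h, 1671 and 1990 at 2 h, 6838 and 5743 at 6 h, and 9432 and 9296 at 12 h, again with no overlap between the 4 times. The rise was 4.70-fold at 6 h (log2 2.23 ± 0.24, limma adjusted p = 3.64e-07) and 7.02-fold at 12 h (2.81 ± 0.24, adjusted p = 1.5e-08). In serum it went from 552 and 1011 at 0 h through 549 and 664 at 6 h to 4810 and 4381 at 12 h, a 6.14-fold rise (log2 2.62 ± 0.24, limma adjusted p = 3.12e-08). The authors' deposited table gives Clspn log2 changes of 2.27 at 6 h and 2.82 at 12 h of E2F1 and 2.64 at 12 h of serum. Its group means spanned 33.8-fold, from 277 ± 29.7 (SD, n = 2) in the EV line at 12 h of doxycycline to 9364 ± 96.2 (SD, n = 2) after 12 h of E2F1.

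Chek1 (chromosome 9, 36708482 to 36727065, - strand), the kinase that ATR activates, started in the E2F1 line at 491 and 486 (0 h) and was at 417 and 458 at 2 h, 858 and 811 at 6 h, and 1398 and 1307 at 12 h. Both libraries at 6 h were above those at 0 h, and both at 12 h above those at 6 h. Chek1 rose 1.71-fold at 6 h (log2 0.77 ± 0.24, limma adjusted p = 0.0114) and 2.76-fold at 12 h (1.47 ± 0.24, adjusted p = 3.48e-05). The 6 h call was lost without E2F1 0 h replicate 2 or E2F1 6 h replicate 1, where the adjusted p reached 0.0627.

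In serum Chek1 stayed low for 6 h, at 251 and 385 at 0 h, 333 and 246 at 2 h and 281 and 316 at 6 h, with all 3 pairs overlapping. At 12 h it was at 1460 and 1387, a 4.57-fold rise over 0 h (log2 2.19 ± 0.24, limma adjusted p = 2.81e-07), and the authors' deposited table gives 2.22. The order of the Chek1 levels ran from serum 12 h (1424 ± 51.6, SD, n = 2) and E2F1 12 h (1353 ± 64.4), which overlapped, to E2F1 6 h (835 ± 33.2), E2F1 0 h (489 ± 3.54) and E2F1 2 h (438 ± 29), with no overlap between these neighbours. The 6 remaining EV groups, from 331 ± 19.8 at 2 h of doxycycline to 195 ± 67.2 at 12 h, each overlapped the next in the order.

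Wee1 (chromosome 7, 110122046 to 110143286, + strand) was the member with the largest rise at 6 h of E2F1. It was at 949 and 978 at 0 h, 1158 and 1288 at 2 h, 2925 and 2756 at 6 h, and 2856 and 3242 at 12 h. The 6 and 12 h libraries overlapped, and the level had thus reached its highest range by 6 h. The rise was 2.95-fold at 6 h (log2 1.56 ± 0.12, limma adjusted p = 7.22e-09) and 3.16-fold at 12 h (1.66 ± 0.12, adjusted p = 2.93e-09), and the step from 6 to 12 h was 0.10 ± 0.12 (95% interval -0.16 to 0.36, adjusted p = 0.551). In serum Wee1 was at 806 and 1075 at 0 h, 885 and 911 at 6 h, and 2116 and 1829 at 12 h, a 2.11-fold rise (log2 1.08 ± 0.12, limma adjusted p = 4.71e-07). Unlike Chek1 and Timeless, Wee1 was lower after 12 h of serum than in every library of the E2F1 line at 6 and 12 h.

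**Figure D1:**
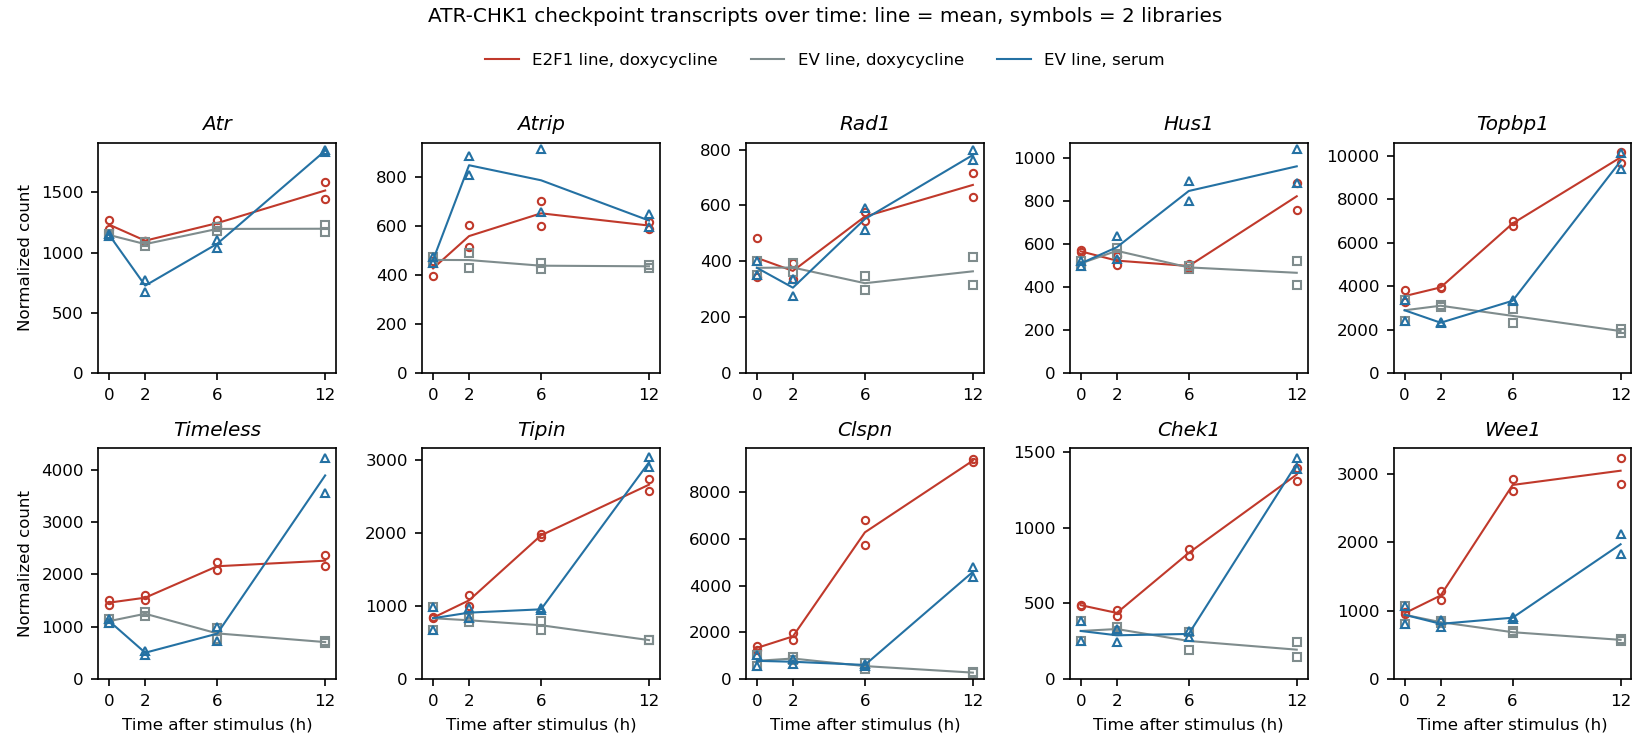
Normalized count (vertical axes, each from 0) against hours after the stimulus for the 9 members and Clspn; lines join group means and symbols are the 2 libraries, with the EV 0 h libraries drawn for both EV courses. Wee1 in the E2F1 line reaches 2925 and 2756 at 6 h, while Chek1, Topbp1 and Tipin in serum stay near their 0 h level until 6 h and are high at 12 h.

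Seen as a group, 7 of the 9 members rose at 6 h of E2F1 and 0 fell, where 28.8% of all genes rose and 22.9% fell. At 12 h all 9 rose, where 31.8% of all genes rose and 29.7% fell. The median log2 change of the members was 0.61 at 6 h and 0.72 at 12 h, and that of all genes was -0.03 and -0.02. At 2 h, 0 of 9 passed, where 1.86% of all genes did. An unadjusted p under 0.05 was found for 3 of the 9 and for 15% of all genes. The 3 were Wee1 (0.34, limma adjusted p = 0.182), Atrip (0.39, adjusted p = 0.221) and Tipin (0.36, adjusted p = 0.225), and both 2 h libraries of each lay above both at 0 h. In bulk RNA, a change in the number of cells of a kind and a change in RNA per cell cannot be told apart.

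Between 6 and 12 h of E2F1, 5 of the 9 members rose, where 15.1% of all genes did: Chek1, Tipin and Topbp1, which had already risen at 6 h, and Atr and Hus1, which had not. The step was 0.70 for Chek1 (limma adjusted p = 0.0297), 0.43 for Tipin (adjusted p = 0.0209), 0.53 for Topbp1 (adjusted p = 0.00358) and 0.28 for Atr (adjusted p = 0.0195). Leaving out any 1 of the 4 libraries compared (E2F1 6 h or 12 h, replicate 1 or 2) reduced the 5 calls to 2 or 3. The calls of Chek1, Tipin and, in 3 of the 4 cases, Atr were the ones lost. The step of Clspn was 0.58 (adjusted p = 0.0648).

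The EV line under doxycycline is the control for the drug and for time. At 2 h and at 6 h, 0 of 9 members passed, where 7.35% and 0.134% of all genes did. At an unadjusted p under 0.05 there were 0 members at 2 h, where 23.3% of all genes were, and 2 at 6 h (Timeless and Wee1), where 5.9% were. At 12 h, 4 members fell, where 3.42% of all genes fell: Timeless (from 1064 and 1152 to 692 and 723, log2 -0.65), Tipin (from 673 and 991 to 529 and 537, -0.61), Topbp1 (from 2417 and 3380 to 2021 and 1862, -0.56) and Wee1 (from 806 and 1075 to 593 and 555, -0.70). Their adjusted p-values by limma were between 0.00373 and 0.0158. Clspn fell too, from 552 and 1011 to 256 and 298 (-1.43, adjusted p = 0.00284), while Chek1, from 251 and 385 to 147 and 242, did not pass (-0.72, adjusted p = 0.105, and -0.36 to -1.08 with 1 library left out).

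These falls rest on few libraries. EV 0 h replicate 2 was higher than replicate 1 for Clspn, Chek1, Tipin, Topbp1 and Wee1, and for Timeless (1152 against 1064). Without it the changes were -0.59 for Timeless, -0.34 for Tipin, -0.32 for Topbp1, -0.49 for Wee1 and -0.996 for Clspn. The call of Clspn was then lost, as were the 4 calls of members. Without EV 12 h replicate 1, 1 call remained, and with only the compared groups in the fit 0 did (adjusted p from 0.0692 to 0.21 for the 4 members and 0.0571 for Clspn). Chek1 passed without EV 0 h replicate 1 (-1.03, adjusted p = 0.0247) or EV 12 h replicate 2 (-1.08, adjusted p = 0.0314). Every comparison with EV 0 h shares these 2 libraries.

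At 0 h, before any stimulus, 0 of the 9 members differed between the lines, where 15% of all genes did. An unadjusted p under 0.05 was found for 3 of the 9 and for 29.5% of all genes. Chek1 was at 491 and 486 in the E2F1 line and 251 and 385 in the EV line (log2 difference 0.65, limma adjusted p = 0.0728). Timeless was at 1506 and 1417 against 1064 and 1152 (0.40, adjusted p = 0.0555), and neither gene's libraries overlapped. Clspn was higher in the E2F1 line, at 1428 and 1244 against 552 and 1011 (0.83, adjusted p = 0.0245, and 0.0888 with only the compared groups fitted). That call was also lost without any 1 of E2F1 0 h replicate 1 or 2 or EV 0 h replicate 1 (0.40). Without EV 0 h replicate 2, 2 members passed in place of 0.

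**Figure D2:**
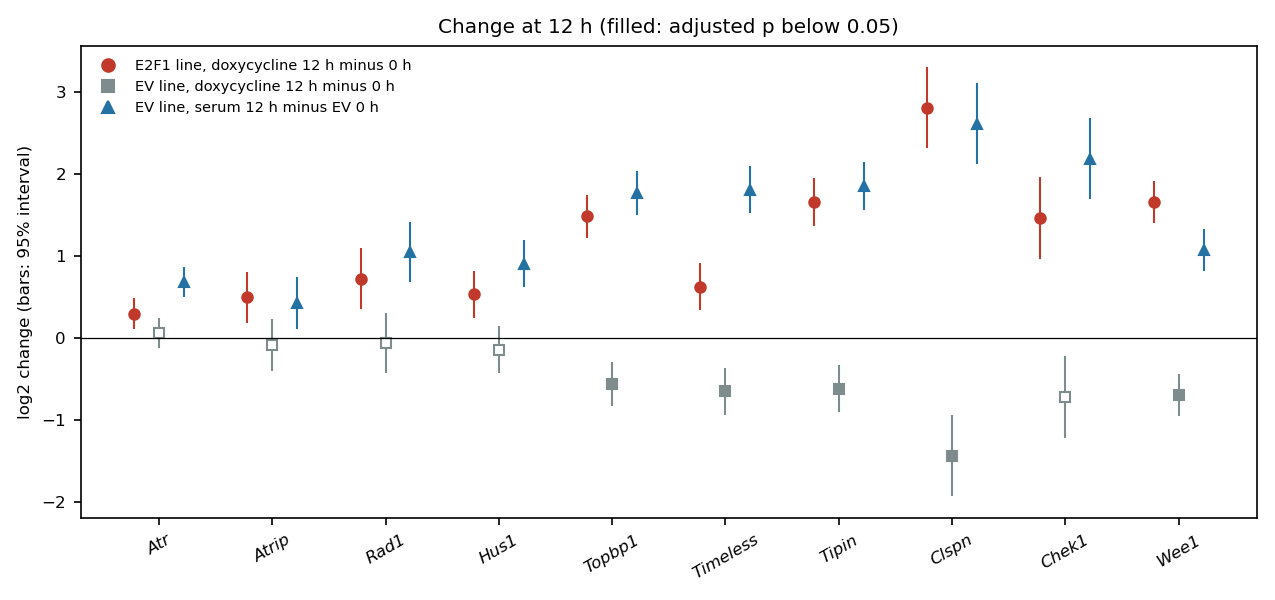
Change from 0 to 12 h on the log2 scale (vertical axis) with 95% intervals for the 9 members and Clspn in the E2F1 line with doxycycline, the EV line with doxycycline and the EV line with serum; filled symbols passed limma's adjusted p of 0.05. All E2F1 and serum symbols are filled and above 0, and those of Timeless, Tipin, Topbp1, Clspn and Wee1 in the EV line with doxycycline are filled and below 0.

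How far the response to doxycycline differed from line to line was tested directly. At 6 h, 7 of 9 members rose more in the E2F1 line, where 22.2% of all genes did. The differences were 2.00 for Wee1 (95% interval 1.64 to 2.36, limma adjusted p = 8.38e-08), 1.38 for Tipin, 1.11 for Chek1, 1.09 for Topbp1, 0.91 for Timeless, 0.69 for Rad1 and 0.68 for Atrip. Atr (-0.05, 95% interval -0.31 to 0.22) and Hus1 (-0.13, -0.54 to 0.27) did not pass. Without EV 0 h replicate 2, 4 of the 7 calls were made, and those of Chek1, Rad1 and Atrip were not. Chek1 was also lost without EV 6 h replicate 1 (0.77), Atrip without E2F1 0 h replicate 2, E2F1 6 h replicate 1 or EV 6 h replicate 2, and Rad1 without any of those 2 E2F1 libraries, E2F1 6 h replicate 2 or EV 6 h replicate 1. The Rad1 call was also lost without the 2 h doxycycline groups (adjusted p = 0.0511), with equal totals (adjusted p = 0.0748) and with only the compared groups (adjusted p = 0.069).

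At 12 h, 8 of 9 rose more in the E2F1 line, where 27.3% of all genes did. Wee1 (2.36), Tipin (2.28), Chek1 (2.18) and Topbp1 (2.05) differed by more than 2 log2 units, Timeless by 1.28, and Rad1 (0.78), Hus1 (0.67) and Atrip (0.58) by less than 1. Clspn differed by 4.24 (95% interval 3.54 to 4.95, limma adjusted p = 2.05e-08). Atr did not pass (0.23, 95% interval -0.03 to 0.50, adjusted p = 0.129). The calls of Atrip (without any 1 of E2F1 0 h replicate 2, E2F1 12 h replicate 1, EV 0 h replicate 2 or either EV 12 h replicate), Rad1 (without the second replicate of any of the 4 groups) and Hus1 (without EV 12 h replicate 1) each depended on single libraries. The differences of Timeless, Tipin, Topbp1, Wee1 and Clspn include the falls in the EV line given above. That of Chek1 likewise includes its change of -0.72 in the EV line, which did not pass.

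Serum brought all 9 members up by 12 h, where 36% of all genes rose and 29.7% fell, with a median log2 change of 1.08 against 0.05 for all genes. Before that, members were called in both directions, as genes in general were. At 2 h, 1 member rose (Atrip) and 3 fell (Atr, Timeless and Topbp1), where 37.5% of all genes rose and 33.5% fell. At 6 h, 3 rose (Atrip, Rad1 and Hus1) and 1 fell (Timeless), where 36.5% rose and 31% fell, and 2 were called without serum 6 h replicate 2. Leaving out EV 0 h replicate 1 or serum 6 h replicate 2 ended the Rad1 call at 6 h, and leaving out EV 0 h replicate 1 or serum 12 h replicate 1 ended the Atrip call at 12 h (log2 0.43, and 0.36 to 0.39 without them). Between 6 and 12 h, 7 of 9 rose, where 19.3% of all genes did, by 2.25 for Chek1, 2.18 for Timeless, 1.63 for Tipin, 1.55 for Topbp1, 1.13 for Wee1, 0.78 for Atr and 0.50 for Rad1. Atrip (-0.32, limma adjusted p = 0.0972) and Hus1 (0.18, adjusted p = 0.313), which were already high at 6 h, did not pass. The Rad1 call was lost under quantile normalization (0.36) and without serum 6 h replicate 1 or either serum 12 h replicate.

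Scaling matters for the serum times: with every library set to the same total, the median of all genes moved by -0.37 at 2 h, -0.21 at 6 h and -0.08 at 12 h of serum, and by -0.12 at 6 h of E2F1. Under that scaling all called values of these genes kept their direction, and 3 of 82 calls were lost. Called values that it moved by more than 1.5 times were, at 2 h of serum, those of Atr (from -0.66 to -1.03), Atrip (from 0.87 to 0.50) and Topbp1 (from -0.30 to -0.67), and at 6 h those of Timeless (from -0.37 to -0.58) and Rad1 (from 0.55 to 0.33). Quantile normalization took Topbp1 at 2 h of serum to -0.54.

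E2F1 and serum were then compared as changes from each line's own 0 h. No group of the E2F1 line received serum, and the serum groups received no doxycycline. Line, drug and stimulus therefore cannot be told apart in this comparison, at 6 h or at 12 h. At 6 h, 5 of 9 members had a higher change with E2F1, where 30.3% of all genes had: Wee1 by 1.61 (limma adjusted p = 3.47e-07), Tipin by 1.00, Timeless by 0.93, Chek1 by 0.83 and Topbp1 by 0.74. Clspn belonged with them (2.54, adjusted p = 4.05e-06). Hus1 alone among the members had a higher change with serum (-0.91, adjusted p = 0.000554), where 27.6% of all genes had. The Chek1 difference was the least secure, with an adjusted p of 0.0412 that became 0.0572 without the 2 h doxycycline groups and 0.220 under quantile normalization (0.49), and it was also lost without any 1 of 6 of the 8 libraries compared.

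At 12 h, 3 of the 9 members passed, and Timeless was the one member that passed in opposite directions at the 2 times. Wee1 had still changed more with E2F1 (0.58, 95% interval 0.22 to 0.94, limma adjusted p = 0.00969), where 25% of all genes had. Timeless (-1.18, -1.58 to -0.77, adjusted p = 7.16e-05) and Atr (-0.39, -0.65 to -0.12, adjusted p = 0.0159) had changed more with serum, where 23.8% of all genes had. The other 6 members did not pass, among them Chek1 (-0.72, -1.43 to -0.02, adjusted p = 0.083), Topbp1 (-0.28, -0.66 to 0.09) and Hus1 (-0.38, -0.78 to 0.03). Clspn differed by 0.19 (-0.51 to 0.90) although its level was 4596 ± 303 (SD, n = 2) in serum and 9364 ± 96.2 with E2F1, since its 0 h levels in the lines differed as well. Without EV 0 h replicate 2, 5 members passed in place of 3, and Wee1 was not one of them (0.37, adjusted p = 0.0719). The Wee1 call was also lost without serum 12 h replicate 2 (0.47), and the Atr call without E2F1 0 h replicate 2 or E2F1 12 h replicate 2.

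**Figure D3:**
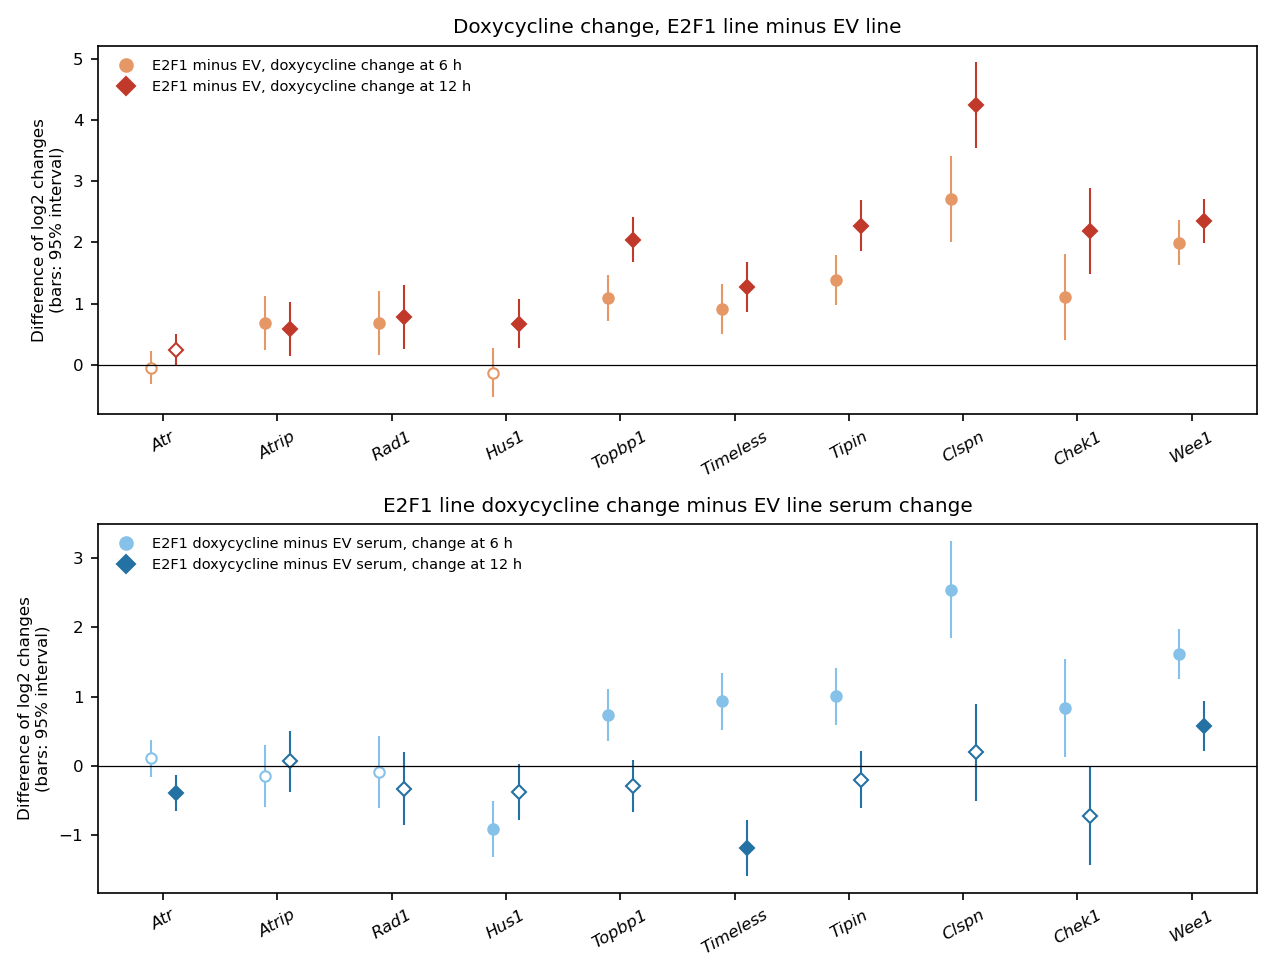
Differences of log2 changes (vertical axes) with 95% intervals at 6 and 12 h, for E2F1 line minus EV line under doxycycline (upper panel) and E2F1 line under doxycycline minus EV line under serum (lower panel); filled symbols passed limma's adjusted p of 0.05. In the lower panel Timeless goes from 0.93 at 6 h to -1.18 at 12 h, and Wee1 stays above 0 at 1.61 and 0.58.

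Compared per kilobase of annotated exon, the fork and effector genes also differed in level. In the EV line at 0 h, normalized counts per kilobase were 445 for Tipin, 275 for Wee1, 258 for Topbp1, 181 for Timeless and 109 for Clspn. They were 79.0 for Hus1, 68.6 for Chek1, 64.7 for Atrip, 51.0 for Rad1 and 48.5 for Atr. In the E2F1 line at 12 h Tipin (1422), Clspn (1303), Wee1 (892) and Topbp1 (885) were highest and Atr (64.1) lowest. Exon length counts every annotated exon of a gene, so a gene with long rarely used exons is set too low on this scale. The length used was longest for Atr, at 23629 bases, and next for Topbp1, at 11226.

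Set beside the promoter letters shown above, the genes with an E2F-type match had log2 changes of 1.47 (Chek1), 1.49 (Topbp1) and 2.81 (Clspn) at 12 h of E2F1. The 5 genes with a window and no match had 0.30 (Atr), 0.50 (Atrip), 0.53 (Hus1), 0.63 (Timeless) and 0.72 (Rad1). Tipin (1.66) and Wee1 (1.66), which rose more than Chek1 and Topbp1, had no window and could not be placed. As given above, other starts exist for Chek1, Timeless, Topbp1 and Clspn, and the windows of Chek1 and Timeless leave out the GENCODE gene start. With 8 genes and windows of 300 bases this is a description only.

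Likeness to Chek1 and to Wee1 was ranked among non-member genes, by Pearson r of the 11 log2 group means. The closest to Chek1 were Cdc45 (0.99), Dnmt1 (0.99), Mms22l (0.98), Mcm10 (0.98) and Recql4 (0.98). For Wee1 they were Fbxo5, Ercc6l, Atad2, Rrm2 and Usp1, each at 0.99. Among the members and Clspn, Chek1 was most like Topbp1 (0.98), and Wee1 most like Clspn (0.98). The 11 groups are time points of the same lines and not independent samples, so these values rank likeness and are not tested.

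Further genes of the pathway were taken as 4 lists. Of 10 genes for the clamp, its loader and RPA, 8 rose and 0 fell at 12 h of E2F1, with a median log2 change of 1.26. For all 4 lists the background is that of all genes at 12 h: 31.8% rose and 29.7% fell with E2F1 (median -0.02), and 36% rose and 29.7% fell in serum (median 0.05). Rfc5 (1.98) and Rfc4 (1.76), subunits of the clamp loader, and Rpa2 (1.51) and Rpa3 (1.31), subunits of the single-stranded DNA binding protein, changed most. In serum at 12 h, 8 of the 10 rose and 1 fell (Rad9b), with a list median also of 1.26 and Rpa2 at 2.70, Rfc5 at 1.68, Rfc4 at 1.14 and Rpa3 at 0.63. Of 6 other activators and adaptors, 5 rose with E2F1 (median 2.08), and Clspn was followed by Wdhd1 (2.41), a replisome component, Fancm (2.33), a fork-remodelling translocase, and Etaa1 (1.82), an RPA-bound activator of ATR. In serum 5 of the 6 rose and Smarcal1 fell (median 1.38), with Wdhd1 at 2.98, Fancm at 1.43 and Etaa1 at 1.33.

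Among 13 targets and antagonists of CHK1 and WEE1, 11 rose with E2F1 and 1 fell (median 1.53). Cdk1 (2.48), the kinase that WEE1 inhibits, Plk1 (2.31), a mitotic kinase that promotes WEE1 and Claspin turnover, Usp1 (2.26), a deubiquitinase, and Pkmyt1 (2.13), a WEE1-related kinase, changed most. Fbxo6, an F-box protein linked to CHK1 turnover, fell (-1.39). In serum 6 of the 13 rose, where 36% of all genes did, and 2 fell (Btrc and Fbxo6), with a median of 0.07 against 0.05 for all genes. Cdk1 was at 1.42, Usp1 at 1.49, Pkmyt1 at 1.70 and Fbxo6 at -1.20, and Plk1 did not pass (limma adjusted p = 0.971).

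In the sister ATM-CHK2 arm, which answers double-strand breaks, 10 of the 12 listed symbols were in the table; 9 rose with E2F1 and Trp53bp1 fell (-0.76), with a median of 1.19. Chek2 (2.06), the effector kinase, Rnf168 (1.94), a ubiquitin ligase at breaks, Mre11a (1.55), a nuclease subunit, and H2afx (1.45), the histone variant that ATM marks, changed most. In serum 7 of the 10 rose and Trp53bp1 fell (-0.61), with a median of 0.89 and Rnf168 at 1.60, Mre11a at 1.11 and Chek2 at 0.68 (limma adjusted p = 0.0209, and up to 0.192 when EV 0 h replicate 1 or either serum 12 h library was left out). H2afx did not pass in serum (0.39, adjusted p = 0.0773). In the EV line at 12 h of doxycycline, 4 of 10, 2 of 6, 6 of 13 and 2 of 10 genes of the 4 lists fell and 0 rose, where 3.42% of all genes fell and 0.749% rose. Those falls were taken against the same EV 0 h libraries as the members' falls.

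**Figure D4:**
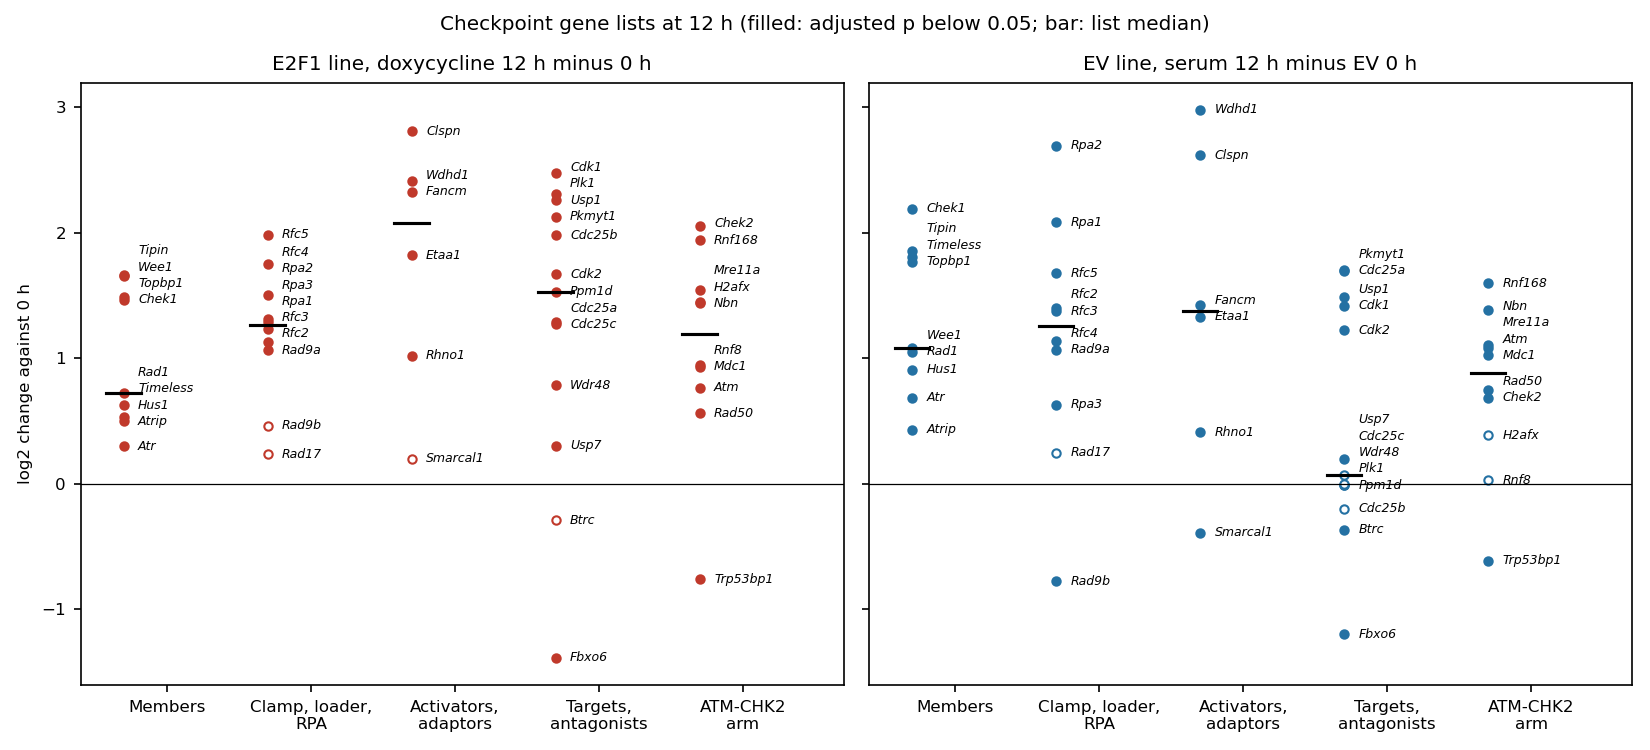
Change from 0 h to 12 h on the log2 scale (vertical axis) for the members and the 4 pathway lists, in the E2F1 line with doxycycline (left) and the EV line with serum (right); each point is a gene, filled where limma's adjusted p was below 0.05, and the bar is the list median. Clspn sits at 2.81 on the left and 2.62 on the right, and Fbxo6 and Trp53bp1 lie below 0 in both panels.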

How the data were processed

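RNA was measured in 22 libraries, and groups and replicate numbers were taken from the labels. The submitters' processing notes name FastQC, Trimmomatic, HISAT2, featureCounts, DESeq2 and the build mm10, without versions or roles. The main table holds normalized counts, a score that the authors scaled and rounded to whole numbers before they deposited it, so no count model was run. The authors also deposited tables with the log2 fold change of each time against 0 h. Those tables give the adjusted p-value of each gene as deposited, hold genes changed by at least 2 on the log2 scale in either direction with an adjusted p of at most 0.05, and were used for 4 quoted values. Depth is known only as totals of normalized counts.

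The test was limma 3.58.1 in R 4.3.3 on log2(value + 1), a scale that understates changes of low genes. A mean for each of 11 groups was fitted to all 22 libraries (11 residual degrees of freedom, empirical Bayes with a mean-variance trend). Each comparison had its own Benjamini-Hochberg adjustment over all 11208 genes, and 0.05 was the threshold. The table's lowest gene mean was 99.6, so no filter was needed and all 9 members were tested. Annotation came from GENCODE M21 on GRCm38, where 10977 of 11208 identifiers matched with their version, and promoter windows from RefSeq.

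The members and lists were chosen with earlier results of these data known. All members were named, with Clspn, the 4 genes of each pathway list with the largest absolute change at 12 h of E2F1, and the 5 non-member genes most like Chek1 and Wee1. Fbxo6, Trp53bp1, Rad9b, Btrc and Smarcal1 were named after their values were seen, as the list members that fell. Alternatives were a pseudocount of 8, a mean of at least 500, quantile normalization, equal totals, a replicate block, only the compared groups and leaving out each library. Fits without the 2 h doxycycline groups and with a crossed block were added after seeing the data.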

Additional observations from a re-analysis of the deposited data

Results flagged for a closer look

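The doxycycline change differed between the lines, by a test of the difference itself (a limma contrast of the 2 changes), for 7 members at 6 h, 8 members at 12 h, and Clspn at both times. The differences, E2F1 line minus EV line on the log2 scale, were at 6 h 1.9984 for Wee1, 1.3819 for Tipin, 1.1116 for Chek1, 1.0865 for Topbp1, 0.9122 for Timeless, 0.6890 for Rad1, 0.6815 for Atrip and 2.7025 for Clspn. At 12 h they were 2.3555 for Wee1, 2.2765 for Tipin, 2.1843 for Chek1, 2.0466 for Topbp1, 1.2754 for Timeless, 0.7822 for Rad1, 0.6715 for Hus1, 0.5787 for Atrip and 4.2439 for Clspn. All were higher in the E2F1 line. Groups of 2 libraries are too small to single out a library by its distance from the others.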

How the results depend on the processing

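The 82 called values of the members and Clspn were refitted 567 times under other settings; 548 fits kept the call, 19 lost it and 0 changed direction. With 1 library left out, 360 of 436 fits kept the call, 76 lost it and 0 changed direction. Most of the lost calls were of Rad1 (24), Chek1 (16), Atrip (12), Atr (9) and Topbp1 (9), and the values concerned were between 0.28 and 1.43 in size; the cause was not tested. Some values that did not pass did so elsewhere: Clspn from 6 to 12 h of E2F1 with equal totals (0.64), under quantile normalization (0.68) and with only the compared groups, Timeless at 0 h with equal totals (0.44) and under quantile normalization (0.38), Atrip from 6 to 12 h of serum under quantile normalization (-0.44), and Chek1 for E2F1 minus serum at 12 h with only the compared groups.

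Some counts moved by more than 1.5 times. Genes called at 2 h of E2F1 (208) were 338 under quantile normalization, 596 with only the compared groups and 26 to 120 with 1 library left out. For the difference between the lines at 2 h (16), they were 5 with a mean of at least 500, 53 under quantile normalization, 45 with only the compared groups and 2 to 22 with 1 library left out. Genes called in the EV line with doxycycline were, with only the compared groups, 400 at 2 h (824), 1 at 6 h (15) and 77 at 12 h (467). With 1 library left out they were 157 to 505, 8 to 30 and 26 to 803. Genes that differed between the lines at 0 h (1684) were 652 with only the compared groups and 684 to 1236 with 1 library left out.

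Members called in the EV line at 12 h (4) were 0 with only the compared groups and 0 to 5 with 1 library left out, and at 6 h (0) they were 0 to 1. Members that differed at 0 h (0) were 1 under quantile normalization, 1 with equal totals and 0 to 2 with 1 library left out. With 1 library left out, members called were 4 to 7 for the difference between the lines at 6 h (7), 2 to 5 for E2F1 minus serum at 12 h (3), 2 to 3 for E2F1 from 6 to 12 h (5) and 2 to 5 for serum at 6 h (4). Clspn, E2F1 minus serum at 12 h, was -0.2419 without EV 0 h replicate 2 and at most 0.6299 with another library left out.

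Replicate numbers were not stated to pair the libraries, and deviations of same-numbered libraries correlated between -0.277 and 0.455 over 55 pairs of groups (median 0.031). With the replicate number as a block, 0 of the 82 calls were lost, and genes called for the difference between the lines at 2 h were 33 in place of 16. With the numbers crossed at 2 h of E2F1, 269 genes were called there in place of 208. Precision is limited by 2 libraries a group.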
